A study of Mus musculus with 4 samples.

Results

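Meningeal fibroblasts were taken from single-cell RNA counts of mouse cortex as the barcodes with at least 500 genes, at least 1 UMI (unique molecular identifier, a tag that counts 1 captured RNA molecule) in 3 or more of Col1a1, Col1a2, Col3a1, Dcn and Lum, and 0 UMIs of Rgs5, Cldn5 and Neurod6. The required genes encode collagen chains and the small matrix proteoglycans decorin and lumican. The barred genes mark mural cells, endothelial cells and excitatory neurons. The rule found 70 of 19237 barcodes (19015 of which had 500 genes or more), a small set from which each library contributed 12 to 22. The tables hold cortical cells of 4 C57BL/6 mice at E16.5, 1 droplet library per mouse. The labels give genotype HET for 2 of them, with no definition of the alleles those mice carry, and COP1 KO for the other 2, whose titles read CKO with no Cre driver, floxed allele or deleted exon named. No treatment is given, and all 4 samples share strain and age. COP1 is a substrate receptor through which a ubiquitin ligase sends c-JUN and related factors to degradation.

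The meninges are the connective tissue sheets around the brain. Their fibroblasts form the pia on the brain surface, the arachnoid with its barrier cells above it, and the dura under the skull, and each layer carries its own genes. Pial and arachnoid fibroblasts lay down the basement membrane of the brain surface, make retinoic acid, and secrete CXCL12, which keeps Cajal-Retzius cells and other migrating neurons near the surface.

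Of the 70 barcodes, 51 held all 5 required genes, 16 held 4 and 3 held just 3, while 4 further barcodes held 2 of the 5 and stayed outside. Another 41 barcodes passed on the required genes and were barred. Summed levels of the required genes, in CPM (summed UMIs scaled to a common total), were 9073, 10950, 7338 and 10470 in HET 1, HET 2, COP1 KO 1 and COP1 KO 2, against 28.0 to 60.7 CPM in all other cells of the same libraries. These levels describe the selection and were not tested. Genes outside the rule are likewise given as a description, since the rule chose these barcodes from the same counts. Slc22a6, an organic anion transporter, stood at 663.5 CPM in the fibroblast barcodes and 1.45 CPM in other cells. Aldh1a2, a retinoic acid synthesis enzyme, stood at 477.3 and 1.27 CPM, and Tfap2b, a transcription factor gene, at 200.5 and 0.626 CPM. The endothelial barcodes (38) and mural barcodes (34) of the same libraries held no UMI of Slc22a6, Aldh1a2 or Ptgds.

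Marker lists of neurons, microglia and blood were below their level in other cells, and those of vessel cells were above it. None of the 6 genes listed for Schwann and neural crest glia had a UMI, and of the 10 microglia and macrophage genes 6 were at 0, among them Cx3cr1, C1qa and P2ry12, with a sum of 0 to 11.7 CPM per library against 117.8 to 175.2 CPM in other cells. The excitatory neuron list summed to 1206, 227.5, 738.3 and 309.7 CPM in HET 1, HET 2, COP1 KO 1 and COP1 KO 2, against 10920 to 11400 CPM in other cells, and 2 barcodes held 121 and 64 of its UMIs. The erythroid list summed to 140.0 to 235.2 CPM, against 1084 to 3114 CPM in other cells. The endothelial list summed to 431.3 to 575.0 CPM, against 112.7 to 201.8 CPM in other cells, with 4 of its 10 genes, Pecam1, Flt1, Esam and Cldn5, at 0. Most of that sum was Ramp2, a receptor accessory protein gene, at 319.4 CPM (990.5 CPM in endothelial barcodes), and Cdh5, the gene of VE-cadherin, at 127.7 CPM (540.5 CPM in endothelial barcodes). The mural list summed to 1975 to 2984 CPM, against 93.7 to 140.7 CPM in other cells, with Rgs5 and Myh11 at 0. Most of it was Vtn, the vitronectin gene, at 1917 to 2949 CPM (4542 CPM in mural barcodes). The part of vessel RNA in the results was not tested. In all, 40 of the 70 barcodes held a UMI of at least 1 of 10 marker genes of neurons or vessel cells.

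Fibroblast barcodes summed to 125208, 114277, 153044 and 171106 UMIs in HET 1, HET 2, COP1 KO 1 and COP1 KO 2, with median depths of 7093, 8868, 6671 and 6279.5 UMIs. Median depths of other cells were 4464 to 5439 UMIs, and total counts per library were 28049007 to 28988265 UMIs. The deepest fibroblast barcode, in COP1 KO 2, held 33517 UMIs and the next 19331. Across libraries 181 barcode sequences occurred more than once, 3 of them fibroblast barcodes, and none was shared between fibroblast barcodes. HET 1 and COP1 KO 1 carried Xist (185 and 308 UMIs in the fibroblast barcodes) and HET 2 and COP1 KO 2 carried the Y-linked Ddx3y (21 and 37 UMIs), so that each genotype had 1 library of each kind. Transcripts of COP1's own gene, which the tables name Rfwd2, gave 3, 2, 7 and 2 UMIs in the fibroblast barcodes, too few for a test. Counts at the 3′ end may lie outside the deleted stretch, so they do not check the genotype.

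Layer genes were mixed within the set, with some arachnoid-type and some pia-type genes in most barcodes. Others had a UMI in a minority of barcodes, among them Ptgds and Dpp4 of the arachnoid list. In the pia list these were Lama1, Lama2, Ngfr, Cemip and Rdh10. Slc6a13, a GABA and taurine transporter gene, had a UMI in 60 of 70 barcodes, Slc22a6 in 56, Cldn11, a tight junction gene of the arachnoid barrier, in 55, and Aldh1a2 in 53. Cxcl12 had a UMI in 66, S100a6, a calcium-binding protein gene used as a pial marker, in 43, Col18a1 in 39, and Lama1, a laminin chain of the pial basement membrane, in 16. Ptgds, a prostaglandin D synthase and carrier protein of the arachnoid, had a UMI in 30 barcodes and reached 330, 209, 144 and 505 UMIs in the highest barcode of HET 1, HET 2, COP1 KO 1 and COP1 KO 2. The 3 highest barcodes of COP1 KO 2 held 1295 of its 1423 Ptgds UMIs, and the summed Ptgds level of 8316 CPM in that library came mostly from them.

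**Figure D1:**
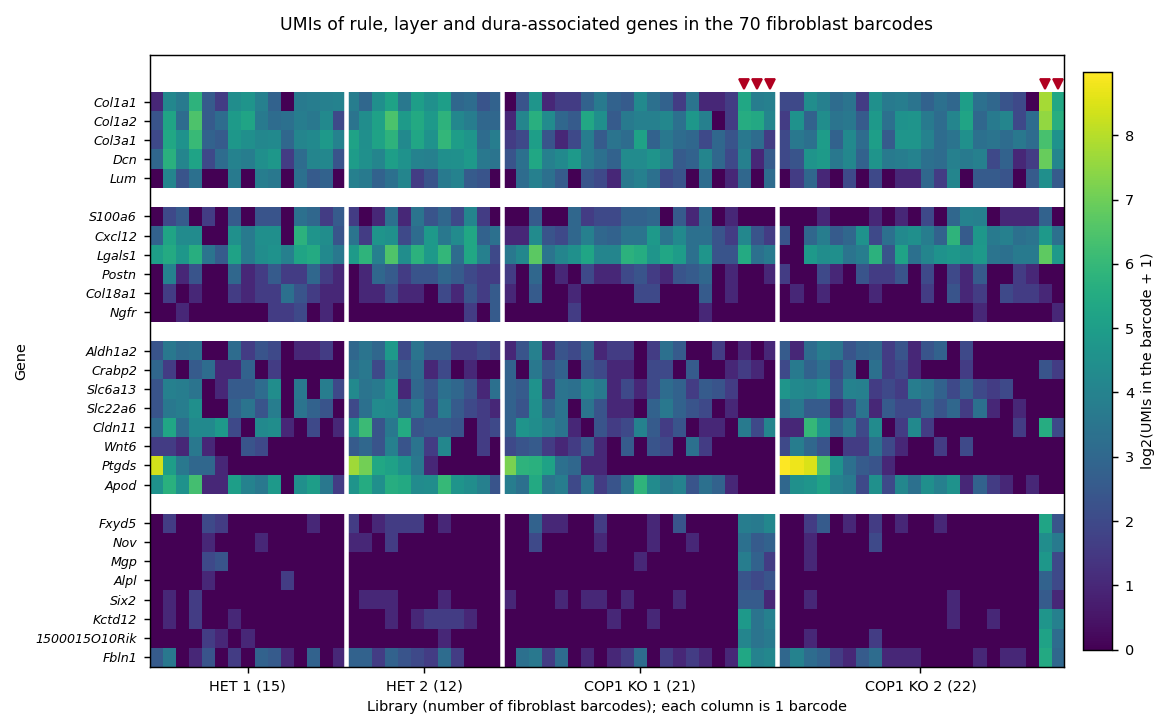
UMIs of single genes in each of the 70 fibroblast barcodes, as log2(UMIs + 1); columns are barcodes grouped by library and ordered by Ptgds, rows are the 5 required genes, pia genes, arachnoid genes and dura-associated genes. Red triangles mark 5 barcodes with 31 to 124 UMIs of the dura list, 3 in COP1 KO 1 and 2 in COP1 KO 2, in which Slc6a13, Slc22a6, Wnt6 and Apod are empty.

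Barcodes with and without Ptgds differed in other layer genes. The 5 barcodes rich in dura genes were left out of this split. Among the 16 barcodes with 20 or more Ptgds UMIs (7 HET and 9 COP1 KO, median depth 8691 UMIs) the Cldn11 level was 2378 CPM, and among the 35 with none (14 HET and 21 COP1 KO, median depth 6265 UMIs) it was 523.2 CPM. Crabp2, a retinoic acid binding protein gene, stood at 694.8 and 147.6 CPM in these sets, and Wnt6, a WNT ligand gene, at 527.8 and 246.0 CPM. S100a6 ran the other way, with 147.0 CPM beside high Ptgds and 644.0 CPM without it, as did Cxcl12 with 1056 and 2500 CPM. Lama1 had 3 UMIs in 3 of the 16 and 17 UMIs in 13 of the 35. Slc6a13 was present in 16 of 16 and in 31 of 35. These splits were made on measured levels after they were seen and were not tested, and the sets differ in depth.

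Dura genes set 5 barcodes apart. Of the 12 genes of the dura and skull mesenchyme list in the tables, 5 barcodes held 31 to 124 UMIs in sum and no other fibroblast barcode more than 11. Of these, 3 were in COP1 KO 1 (53, 37 and 35 UMIs) and 2 in COP1 KO 2 (124 and 31 UMIs), the one with 124 being the deepest barcode of the set. HET 1 held 0 of 15 and HET 2 held 0 of 12, counts which allow shares of up to 20% and 25%, so shares of 14.3% and 9.09% as in COP1 KO 1 and COP1 KO 2 could not be told from 0 at this number of barcodes. The threshold of 30 UMIs was set after the values were seen. All 5 carried Fxyd5, a regulator of the sodium pump and of cell adhesion (4 to 37 UMIs), Nov, which encodes the matricellular protein CCN3 (5 to 20 UMIs), Mgp, an inhibitor of calcification (2 to 26 UMIs), and Alpl, the alkaline phosphatase of mineralising tissue (3 to 6 UMIs).

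Other genes, picked for their ratio after the values were seen, went with them. 1500015O10Rik, now named Ecrg4, which encodes the secreted peptide precursor augurin, stood at 1183 CPM in these 5 and 16.2 CPM in the other 65. Kctd12, an auxiliary subunit gene of the GABA-B receptor, stood at 1314 and 34.3 CPM. The collagen genes Col8a2 and Col12a1 stood at 350.4 CPM each, against 6.06 and 10.1 CPM. Some leptomeningeal genes were missing from the same barcodes and others were not. Slc6a13 and Slc22a6 had 494 and 374 UMIs in the other 65 barcodes and 0 in these, and Apod had 1150 and 0. Aldh1a2 had 1 UMI in each of 2 of the 5. Cldn11 had UMIs in all 5, at 1168 CPM against 1214 CPM in the other 65, and so had Lgals1, at 2891 and 3290 CPM, and Cxcl12, at 861.5 and 1743 CPM. The 5 barcodes are therefore called by their list, dura-rich, and are given no cell type name.

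The bar on Neurod6 bears on this count. Outside the rule, 15 barcodes held 30 or more UMIs of the dura list, and 11 of them had 30 to 287 UMIs of the barred genes. The other 4 had 2 or fewer barred UMIs and 3 or more required genes. Of these, 3 had no Slc6a13 UMI, like the 5 above, 1 in COP1 KO 1 and 2 in COP1 KO 2. The remaining one, in HET 2, held 37 dura list UMIs of its 27881 UMIs, but also 22 UMIs of Slc6a13, 18 of Aldh1a2 and 0 of 1500015O10Rik.

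Fibroblasts took 0.327% of the barcodes with 500 genes or more in HET 1 (exact binomial 95% interval 0.183 to 0.539) and 0.274% in HET 2 (0.142 to 0.479). COP1 KO 1 held 0.398% (0.247 to 0.608) and COP1 KO 2 held 0.460% (0.289 to 0.696). Both COP1 KO libraries were above both HET libraries, and the 4 intervals overlapped. The means were 0.301% ± 0.0373 and 0.429% ± 0.044 (SD, n = 2 each), a ratio of 1.43. The two-sided exact permutation test gave p = 0.333, the smallest that 2 libraries against 2 can give. Without the 5 dura-rich barcodes the ratio was 1.26. Intervals cover counting error only, and how much of the meninges came with each dissected cortex cannot be told apart from genotype.

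**Figure D2:**
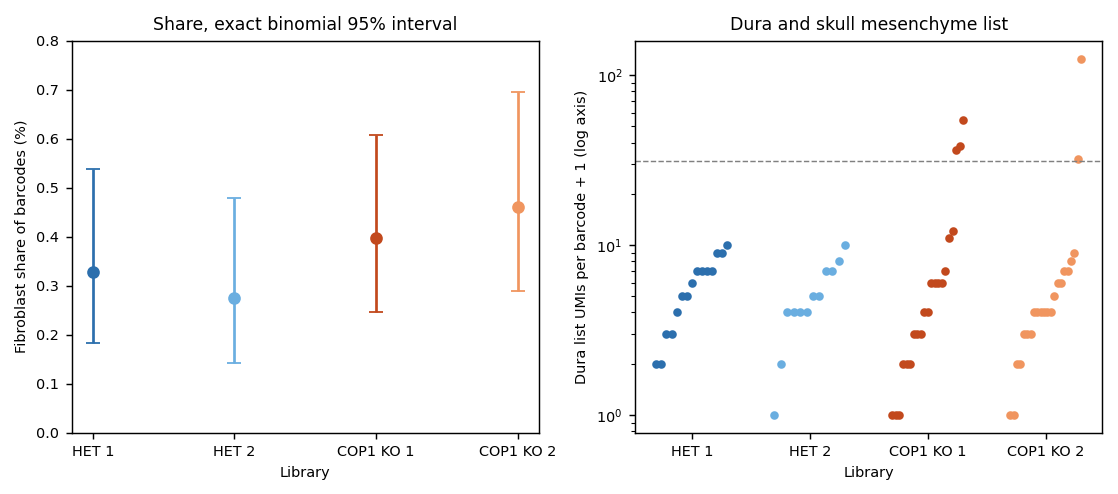
Left, share of barcodes chosen as fibroblasts in each library with its exact binomial 95% interval, HET at 0.327% and 0.274%, COP1 KO at 0.398% and 0.460%. Right, UMIs of the dura and skull mesenchyme list in each fibroblast barcode (plus 1, log axis) by library, with a dashed line at the threshold of 30 UMIs that 5 COP1 KO barcodes pass.

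Genotypes were then compared on UMIs summed over the fibroblast barcodes of each library. Of 3100 genes tested, 12 passed (0.387% of genes; edgeR quasi-likelihood test, Benjamini-Hochberg adjusted p under 0.05), 11 higher in COP1 KO (0.355%) and 1 lower (0.0323%). Unadjusted p was under 0.05 for 196 genes. The low-count filter kept genes with enough counts in 2 libraries, which may both be of 1 genotype. The called genes 1500015O10Rik, Nov and Atp1b1 had 0 to 4 UMIs in each HET library and entered through COP1 KO. Their direction therefore follows in part from the filter. By position alone, 14.8% of genes had both COP1 KO libraries above both HET libraries and 20.8% had both below. DESeq2 called 0 genes, with 37 at an unadjusted p under 0.05. Without the 5 dura-rich barcodes, or without the single deepest barcode, both chosen after seeing the data, edgeR called 0 genes, with 119 and 142 genes at an unadjusted p under 0.05.

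For 6 of the 12 genes most COP1 KO counts lay in the 5 dura-rich barcodes, which held 17.1% and 24.7% of the fibroblast UMIs of COP1 KO 1 and COP1 KO 2. The gene 1500015O10Rik (GRCm38.p6 chromosome 1, 43730602 to 43742564) gave 4, 1, 38 and 46 UMIs in HET 1, HET 2, COP1 KO 1 and COP1 KO 2, or 32.0, 8.75, 248.3 and 268.8 CPM. Both COP1 KO libraries were far above both HET libraries, and the gene rose (log2 change 3.61, SE 0.471, edgeR adjusted p = 8.58e-05), with 96.4% of its COP1 KO counts in the 5 barcodes. Without them its level was 0 and 23.3 CPM in COP1 KO, overlapping HET.

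Kctd12 (chromosome 14, 102976581 to 102982637) stood at 32.0, 78.8, 346.3 and 239.6 CPM in the same order and rose (log2 change 2.44, SE 0.404, edgeR adjusted p = 0.00177). Without the 5 barcodes it was at 15.8 and 15.5 CPM in COP1 KO, below both HET libraries. Nov (chromosome 15, 54745910 to 54753762) stood at 16.0, 35.0, 169.9 and 210.4 CPM and rose (log2 change 2.92, SE 0.490, edgeR adjusted p = 0.00177). Its values without the 5 were 47.3 and 31.1 CPM in COP1 KO, overlapping HET. Nov and Fxyd5 belong to the list that chose the 5 barcodes, so a drop without the 5 follows from that choice. Fxyd5 (chromosome 7, 31032723 to 31042331) stood at 63.9, 87.5, 372.4 and 309.7 CPM and rose (log2 change 2.20, SE 0.357, edgeR adjusted p = 0.00177), and 118.2 and 93.2 CPM remained in COP1 KO without the 5. These 4 genes passed when any 1 library was left out.

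Atp1b1, which encodes the beta-1 subunit of the sodium pump, and Fbln1, which encodes the matrix protein fibulin-1, passed with less margin. Atp1b1 gave 3, 0, 19 and 22 UMIs and rose (log2 change 3.28, SE 0.710, edgeR adjusted p = 0.0319). Atp1b1 had 9 of its 19 UMIs of COP1 KO 1 in the barcode with 64 excitatory neuron UMIs, and stood at 143.6 CPM in other cells. Atp1b1 was not among the genes called without the 2 barcodes richest in neuron list UMIs. Its COP1 KO counts lay to 73.2% in the dura-rich barcodes, and the call was lost without HET 2, COP1 KO 1 or COP1 KO 2. Fbln1 (chromosome 15, 85205949 to 85286294) stood at 335.4, 341.3, 790.6 and 631.2 CPM and rose (log2 change 1.10, SE 0.251, edgeR adjusted p = 0.0439). Without the 5 barcodes it was at 386.2 and 450.3 CPM in COP1 KO, with a log2 change of 0.33, and its call was lost without HET 1, HET 2 or COP1 KO 1.

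**Figure D3:**
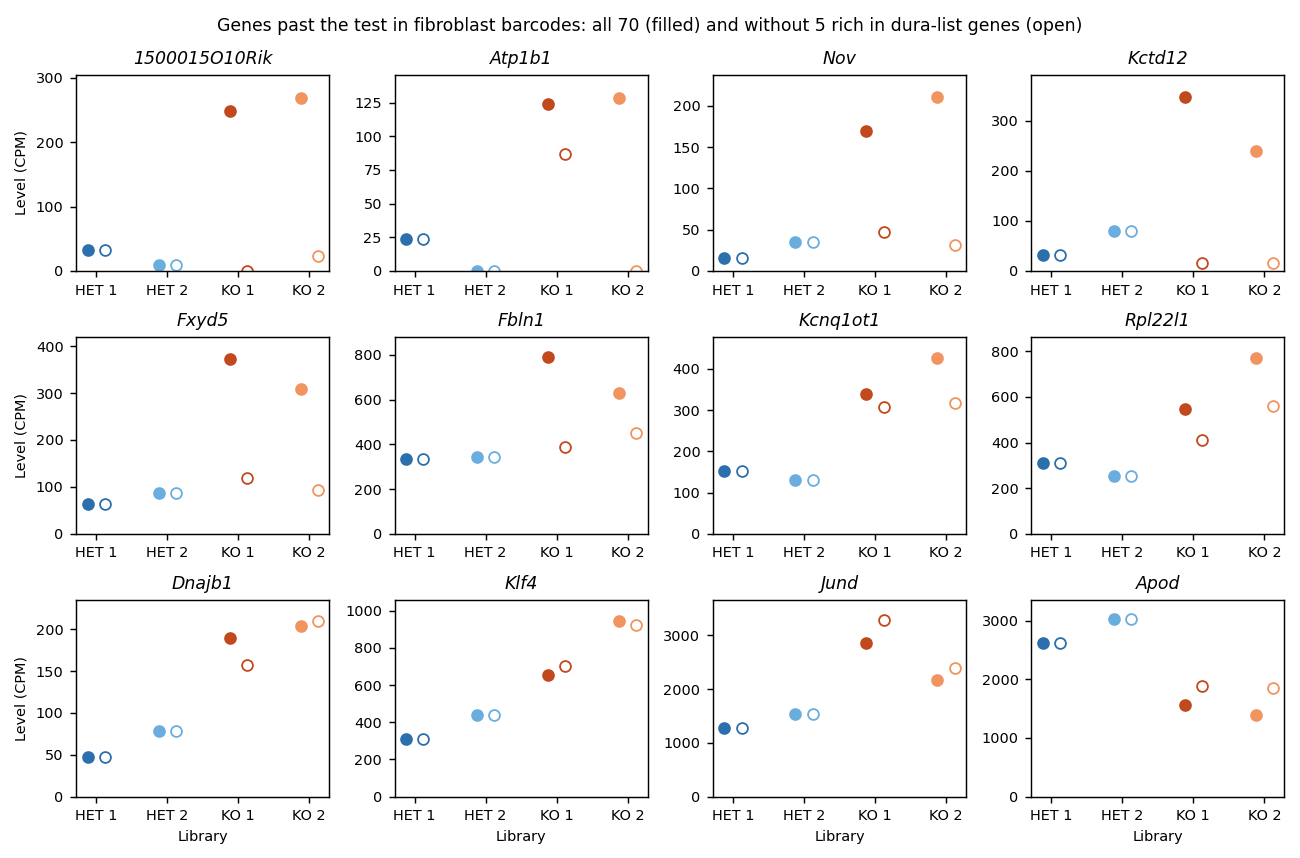
Level in CPM of the 12 genes past the test in the summed fibroblast barcodes of each library, one panel per gene; filled points use all 70 barcodes and open points leave out the 5 rich in dura-list genes. Filled and open points of COP1 KO are far apart for 1500015O10Rik, Kctd12, Nov and Fxyd5, and close for Jund, Klf4 and Dnajb1.

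In the 6 other genes both COP1 KO libraries stayed on their side of both HET libraries without the 5 barcodes, though none of the 6 then passed. The same held for Fxyd5 and Fbln1 above. Jund, the gene of an AP-1 transcription factor subunit (chromosome 8, 70697739 to 70700616), stood at 1278, 1531, 2855 and 2162 CPM in HET 1, HET 2, COP1 KO 1 and COP1 KO 2. It rose (log2 change 0.87, SE 0.194, edgeR adjusted p = 0.0401), and the change was 1.05 without the 5 barcodes (edgeR adjusted p = 0.506). It was the gene called after each barcode was thinned to 2000 UMIs, and the call was lost without HET 1 or HET 2. Klf4, a zinc finger transcription factor gene (chromosome 4, 55527137 to 55532475), stood at 311.5, 437.5, 653.4 and 946.8 CPM and rose (log2 change 1.14, SE 0.262, edgeR adjusted p = 0.0439), with a change of 1.15 without the 5. Dnajb1, a co-chaperone of HSP70, stood at 47.9, 78.8, 189.5 and 204.6 CPM and rose (log2 change 1.68, SE 0.381, edgeR adjusted p = 0.0439), with a change of 1.56 without the 5. Calls of Klf4 and Dnajb1 were lost without HET 1 or COP1 KO 2.

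Kcnq1ot1, an imprinted non-coding RNA antisense to Kcnq1, stood at 151.7, 131.3, 339.8 and 426.6 CPM and rose (log2 change 1.47, SE 0.311, edgeR adjusted p = 0.0304), and reads of its partner cannot be told apart if strand was not used. Rpl22l1, a paralog of the ribosomal protein gene Rpl22, stood at 311.5, 253.8, 548.9 and 771.5 CPM and rose (log2 change 1.26, SE 0.268, edgeR adjusted p = 0.0304). Both calls were lost without HET 1, HET 2 or COP1 KO 2. Apod, which encodes the lipid carrier apolipoprotein D (chromosome 16, 31296192 to 31314808), was the gene that fell. Its levels were 2612, 3019, 1562 and 1397 CPM in the same library order (log2 change -0.89, SE 0.183, edgeR adjusted p = 0.0253). The 5 dura-rich barcodes held none of it, and without them COP1 KO was at 1884 and 1856 CPM, still below both HET libraries, with a change of -0.56 (edgeR adjusted p = 0.983). Its call was lost without HET 1 or HET 2.

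Layer lists were compared between genotypes with the same test. Of the 10 pia genes 6 were tested and of the 12 arachnoid genes 8, and 0 passed, with median log2 changes of -0.31 and -0.16. S100a6 stood at 367.4, 481.3, 352.8 and 298.1 CPM in HET 1, HET 2, COP1 KO 1 and COP1 KO 2, with both COP1 KO libraries below both HET libraries (log2 change -0.35, SE 0.262, edgeR adjusted p = 0.921). Without the dura-rich barcodes COP1 KO was at 425.6 and 349.4 CPM and overlapped HET. Cldn11 stood at 1310, 1505, 934.4 and 1181 CPM, again with COP1 KO below HET (log2 change -0.37, SE 0.206, edgeR adjusted p = 0.816). Slc6a13 overlapped between genotypes at 854.6, 901.3, 771.0 and 970.2 CPM. Of the 12 dura genes 5 were tested and 2, Nov and Fxyd5, rose (0.355% of all genes did), with a list median of 2.20. Nov and Mgp passed the low-count filter through their COP1 KO libraries, so this count and median follow in part from the filter. Without the 5 dura-rich barcodes 3 dura genes were tested, with 0 past the threshold and a median of 0.41. Those barcodes were chosen on this same list and all lie in COP1 KO, so this drop follows from the choice and is no test. The pia and arachnoid medians without them were -0.12 and 0.11.

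Secreted factor genes were found in every library, and none in the ligand lists passed the test between genotypes. The chemokine, cytokine and growth factor list had 40 genes, 8 of them tested, with 0 past the threshold and a median log2 change of -0.12 (median of all genes -0.000864). Ptn, the growth factor pleiotrophin, stood at 7164, 7561, 6201 and 6248 CPM in HET 1, HET 2, COP1 KO 1 and COP1 KO 2, against 914.1 CPM in other cells (log2 change -0.21, SE 0.139, edgeR adjusted p = 0.854). Both COP1 KO libraries were below both HET libraries, but without the dura-rich barcodes they stood at 7070 and 7974 CPM and overlapped them. Cxcl12 stood at 2069, 1584, 1209 and 1736 CPM, overlapping between genotypes (log2 change -0.27, SE 0.208, edgeR adjusted p = 0.921). Mdk, the related growth factor midkine, stood at 591.0, 831.3, 1137 and 1333 CPM (log2 change 0.84, SE 0.223, edgeR adjusted p = 0.128). Of its COP1 KO counts, 49.5% lay in the dura-rich barcodes, and without them COP1 KO was at 851.2 and 737.6 CPM, overlapping HET.

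The other ligand lists likewise had 0 genes past the test, 3 TGF-beta and BMP genes tested of 24, 4 WNT genes of 22, 2 IGF binding protein genes of 6 and 6 retinoid genes of 15. Bmp7 stood at 543.1, 647.5, 411.6 and 461.7 CPM and had no UMI in the mural and endothelial barcodes. Bmp4, a ligand of the same family, reached 428.8 CPM in HET 2 and 135.8 to 183.0 CPM in the other libraries. Wnt6 stood at 191.7, 568.8, 300.6 and 286.4 CPM, and Edn3, the ligand of the endothelin receptor B, at 78.8 to 117.6 CPM, against 1.02 and 0.359 CPM in other cells. Igfbp2, which binds insulin-like growth factors, stood at 4182 to 5780 CPM and had UMIs in all 70 barcodes. Aldh1a2 overlapped between genotypes at 423.3, 735.1, 379.0 and 432.5 CPM (log2 change -0.47, SE 0.267, edgeR adjusted p = 0.816).

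**Figure D4:**
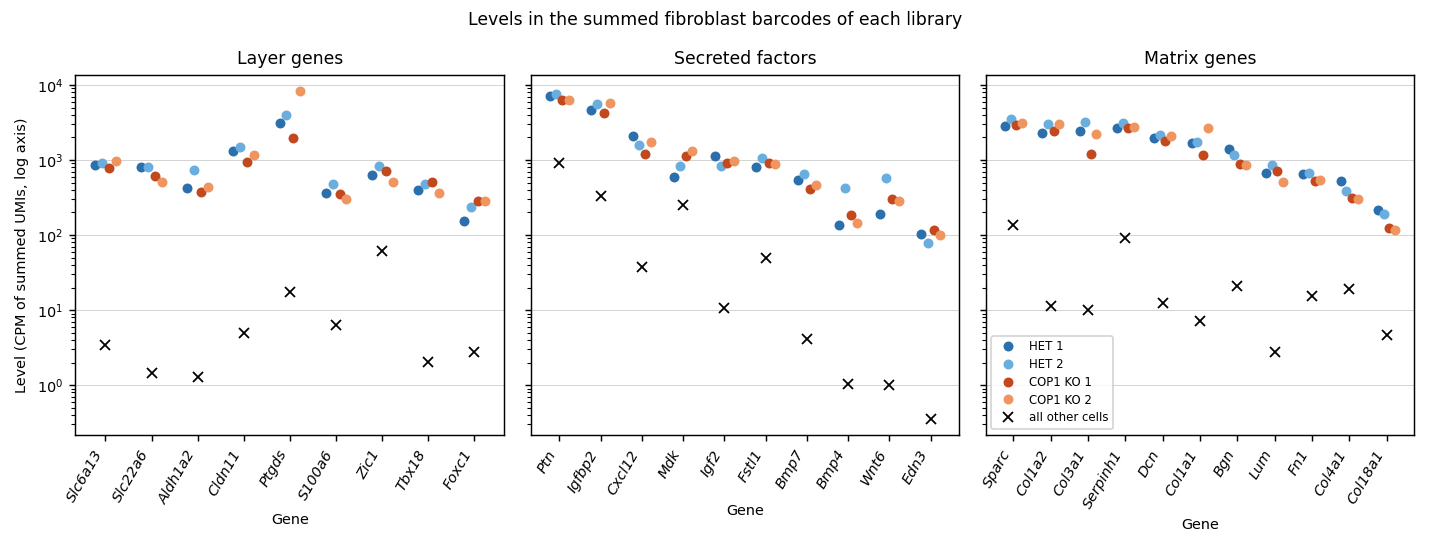
Levels of layer genes, secreted factors and matrix genes in CPM (log axis) in the summed fibroblast barcodes, 1 colored point per library, with a cross for all other cells of the 4 libraries pooled. Ptgds spreads from 1980 to 8316 CPM, while Sparc lies between 2859 and 3465 CPM in the 4 libraries.

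Collagens and other matrix genes were found in all 4 libraries, and some were as high in vessel cells. Col1a1 and Col1a2, Col3a1, Dcn and Lum chose the barcodes, so their levels are given as a description. These genes stayed among the 3100 fitted, where none passed, and no genotype result is drawn from them. Col1a1 was at 1677, 1733, 1170 and 2653 CPM, and Col3a1 at 2468, 3176, 1196 and 2203 CPM in HET 1, HET 2, COP1 KO 1 and COP1 KO 2. The deepest barcode held 219 of the 454 Col1a1 UMIs of COP1 KO 2. Sparc, a collagen-binding glycoprotein gene, stood at 2859 to 3465 CPM and Serpinh1, a collagen chaperone gene, at 2633 to 3141 CPM, each with UMIs in 70 of 70 barcodes. Endothelial and mural barcodes held 4185 and 2104 CPM of Sparc, and 2314 and 3261 CPM of Serpinh1. Of 34 proteoglycan and glycoprotein genes, 20 were tested and 2, Nov and Fbln1, rose (0.355% of all genes did). Both are named above, and the list, which includes Dcn and Lum of the rule, had a median log2 change of 0.08. Mgp, in the same list, had log2 change 2.46 and missed the threshold (SE 0.58, edgeR adjusted p = 0.0511), with 0 UMIs in HET 2. Mgp passed the low-count filter through its COP1 KO libraries, so a positive change follows in part from the filter. Of its COP1 KO counts, 96.2% lay in the dura-rich barcodes, and without them COP1 KO was at 7.88 and 7.76 CPM, between the 55.9 and 0 CPM of HET 1 and HET 2. Mgp is in the list that chose those barcodes, so its drop without them follows from that choice.

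Basement membrane genes lay on 1 side without any passing. All 9 genes tested of the 22 listed had a negative log2 change, with a median of -0.52. Over all genes, 1544 of 3100 changes were positive. Of the 9, 5 had both COP1 KO libraries below both HET libraries (20.8% of all genes did). Col18a1 stood at 215.6, 192.5, 124.1 and 116.9 CPM in HET 1, HET 2, COP1 KO 1 and COP1 KO 2 (log2 change -0.72, SE 0.322, edgeR adjusted p = 0.712). Lamb1, a laminin beta chain, stood at 271.5, 245.0, 176.4 and 128.6 CPM (log2 change -0.73, edgeR adjusted p = 0.676). Col4a1, a type IV collagen chain, stood at 519.1, 385.0, 313.6 and 303.9 CPM (log2 change -0.52, edgeR adjusted p = 0.788). The dura-rich barcodes held 14.6, 58.4 and 116.8 CPM of these 3 genes, against 175.7, 216.1 and 405.9 CPM in the other 65. Without them 8 of 9 genes were still negative, with a median of -0.31. Of the 9, 4 had both COP1 KO libraries below both HET libraries, against 19.2% of all genes without those barcodes. Vessel cells hold more of Col4a1, with 1167 CPM in endothelial and 1280 CPM in mural barcodes.

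**Figure D5:**
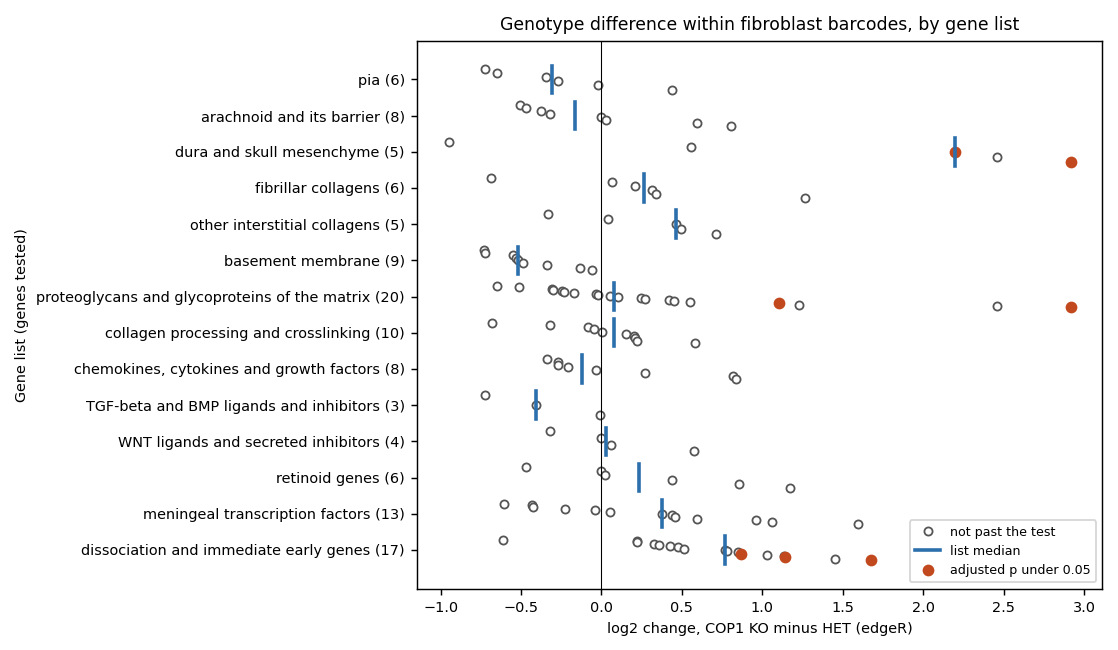
Log2 change of COP1 KO minus HET for each gene tested in 14 lists, 1 point per gene, filled where the edgeR adjusted p was under 0.05; blue bars are list medians. The dissociation and immediate early list has a median of 0.77, the basement membrane list of -0.52, and the dura list of 2.20 over 5 genes. Of these 5, Nov and Mgp passed the low-count filter through COP1 KO. The fibrillar collagen and proteoglycan lists include genes that chose the barcodes.

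Of 21 immediate early and stress genes, 17 were tested, and 3 (Jund, Klf4 and Dnajb1) rose and 0 fell (0.355% and 0.0323% of all genes did). Of the log2 changes, 16 of 17 were positive (1544 of 3100 over all genes), with a median of 0.77. Of these 17 genes, 10 had both COP1 KO libraries above both HET libraries (14.8% of all genes did). The list summed to 11170, 11120, 15000 and 16400 CPM in HET 1, HET 2, COP1 KO 1 and COP1 KO 2, while in other cells the libraries overlapped, at 3189, 3526, 3715 and 3342 CPM. Jun, the gene of c-JUN, stood at 1022, 875.1, 1823 and 1368 CPM (log2 change 0.78, SE 0.208, edgeR adjusted p = 0.128), and Fos at 2476, 2266, 2895 and 3308 CPM (log2 change 0.42, edgeR adjusted p = 0.611). Ier3 was the exception at 694.8, 918.8, 483.5 and 543.5 CPM (log2 change -0.61, edgeR adjusted p = 0.565). Without the dura-rich barcodes 14 of 16 were positive, with a median of 0.44. Of the 16, 7 had both COP1 KO libraries above both HET libraries, against 14.6% of all genes without those barcodes. Enzymatic dissociation is known to induce many genes of this list, and its part in the result was not tested.

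COP1 substrates gave few tests. Of 12 listed genes 5 were tested, and Jund rose (0.355% of all genes did), the call already given. Junb was at 1629, 1033, 1405 and 1619 CPM, and Cebpb, a bZIP transcription factor gene, at 878.5, 805.1, 516.2 and 607.8 CPM (log2 change -0.55, SE 0.229, edgeR adjusted p = 0.635). Of 13 genes of the ligase complex and its partners, 7 were tested and 0 passed. Meningeal transcription factor genes (26 listed, 13 tested) had 0 past the test. Foxc1, required for meningeal development, stood at 151.7, 236.3, 287.5 and 280.5 CPM (log2 change 0.59, SE 0.312, edgeR adjusted p = 0.811), and Tbx18 and Zic1 overlapped between genotypes.

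Whether genotype acted differently on fibroblasts than on the other cells was tested as a term over 8 sums, with the library as a block. Of 15451 genes, 21 passed (0.136%), 15 more positive in fibroblasts (0.0971%) and 6 more negative (0.0388%; edgeR adjusted p under 0.05), and 547 had an unadjusted p under 0.05. Lgals1, which encodes the carbohydrate-binding protein galectin-1 (chromosome 15, 78926725 to 78930465), had the smallest p. In the fibroblasts it stood at 3027, 3632, 3594 and 2823 CPM in HET 1, HET 2, COP1 KO 1 and COP1 KO 2, with no order by genotype (log2 change -0.02, SE 0.172). In all other cells, which pool every other type, it stood at 43.3, 45.0, 168.0 and 166.4 CPM. The term compares ratios, and the fibroblast level was far higher, so the same gain in CPM would be a small ratio there. Whether the make-up of the other cells differed between genotypes was not tested. The term was -1.91 (SE 0.260, edgeR adjusted p = 3.12e-09), and it passed without any 1 library and without the dura-rich barcodes. Anxa2, which encodes annexin A2, followed the same form at 1150, 1304, 999.7 and 1321 CPM in fibroblasts and 17.5, 21.3, 38.5 and 35.5 CPM in other cells (term -0.95, SE 0.184, edgeR adjusted p = 0.000598), and its call was lost without HET 1, COP1 KO 1 or COP1 KO 2.

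Set against endothelial and mural barcodes in place of all other cells, the term called 0 of 4673 genes, with 221 at an unadjusted p under 0.05. There the term was -0.41 for Lgals1 and -0.09 for Anxa2, nearer to no difference than against all other cells. For Ccnd2 it was -1.15. Set against all other cells, but without the 5 dura-rich barcodes, the term called 6 genes, among them Lgals1 and Anxa2. Ccnd2, the gene of cyclin D2, stood at 447.3, 743.8, 385.5 and 280.5 CPM in fibroblasts and at 422.3, 518.0, 647.4 and 556.4 CPM in other cells (term -1.12, SE 0.230, edgeR adjusted p = 0.00184). It also passed without the 5 barcodes, and was lost without HET 1, HET 2 or COP1 KO 2.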

How the data were processed

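Single-cell RNA was measured with 3′ droplet libraries from 4 mice, 2 per genotype. The deposited tables hold raw counts, whole UMIs per gene and barcode. GSNAP and GRCm38 (mm10) are named per the submitters' processing notes, while for the counter, annotation, UMI collapsing, barcode calling and strand setting the entry is: not given in the sources used here. Rows with a number in place of a symbol (3065 of 36528, 1.69% of counts) and 53 copies of rows with identical counts (1.34% of counts) were left out, which left 33439. Identity was not checked among rows with a total of 3 or fewer counts.

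UMIs were summed over the fibroblast barcodes of each library, since cells are not replicates, and tested with edgeR 4.0.16 and limma 3.58.1 in R 4.3.3 (quasi-likelihood F-test, TMM factors, the filterByExpr filter on low counts, Benjamini-Hochberg adjustment over all genes tested). SEs were derived by dividing the size of a log2 change by the root of its F statistic. For the difference from other cells, a class-by-genotype term was fitted on 8 sums with library as a block. Shares were compared with an exact permutation test. CPM scale summed UMIs to a common total, are not scaled to transcript length and compare libraries or cell sets, not genes. Endothelial and mural barcodes were those with a UMI in 3 or more of 5 markers of their type and none of 3 barred genes. Each library is 1 mouse, and no litter, batch or replicate number is given. Alternatives were DESeq2 1.42.0, other scalings and filters, other barcode rules, thinning to 2000 UMIs per barcode and leaving out each library. Doublets were scored with scrublet in scanpy 1.11.5: 236 barcodes and 0 fibroblasts scored over 0.25, and none was removed from the main result. Other steps used Python 3.11.15, numpy 2.4.6, scipy 1.17.1 and pandas 2.3.3. The fit within fibroblasts was also run on simulated library sums with a dispersion common to all genes. These do not copy counts that lie mostly in a few barcodes, so they do not check the calls above. Coordinates are RefSeq GRCm38.p6.

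The barcode rule and the gene lists were chosen with earlier results of these data known. Genes were named when they passed a test with a mean of at least 20 CPM and no overlap between genotypes (up to 15 per direction), when they were the 10 of smallest p in the term, the 6 highest of a list, layer genes with a UMI in 5% of barcodes, or the 15 of highest ratio to other cells among genes with a UMI in 20% of barcodes. Rfwd2 and genes leading the dura-rich barcodes were named outside this rule.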

Additional observations from a re-analysis of the deposited data

Results flagged for a closer look

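These 10 genes were listed because the genotype difference in fibroblasts differed from that in the other cells of the same libraries by the class-by-genotype term (edgeR quasi-likelihood test, adjusted over all genes tested). The term, on the log2 scale, was 3.57 for 1500015O10Rik, 2.54 for Kctd12 and 3.45 for Atp1b1, with most of their COP1 KO counts in the 5 dura-rich barcodes. None of these 3 passed without those barcodes, and the calls were also lost without HET 2 or COP1 KO 2 for 1500015O10Rik and Atp1b1, and without HET 1 or COP1 KO 2 for Kctd12. It was -1.91 for Lgals1, -0.95 for Anxa2 and -1.12 for Ccnd2, all with values given in the report.

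Counts of the other 4 genes were uneven over barcodes or libraries. Igfbp7, a secreted protein gene high in vessels, had a term of -3.03 (edgeR adjusted p = 3.5e-05), and 44 of its 46 UMIs in HET 1 lay in 1 barcode. Without HET 1 the term was -0.14, and the call was also lost without COP1 KO 1 or COP1 KO 2. Penk, the proenkephalin gene, had a term of 5.57 (edgeR adjusted p = 0.000598) and stood at 7.99, 0, 281.0 and 11.7 CPM in HET 1, HET 2, COP1 KO 1 and COP1 KO 2. The dura-rich barcodes held 91.1% of its COP1 KO counts, all in COP1 KO 1. The call was lost without those barcodes (term 2.5), without COP1 KO 1 (2.12) and without HET 2 (4.47), and without HET 1 the term was 14.32. In COP1 KO 2, 1 barcode held 22 Olig1 UMIs and 55 UMIs of the radial glia list, which includes Fabp7. Fabp7, a fatty acid binding protein gene of radial glia, had a term of 2.37 (edgeR adjusted p = 0.00893), and 35 of its 43 UMIs in COP1 KO 2 lay in that barcode. Its call was lost without HET 1, HET 2 or COP1 KO 2. Slc38a2, an amino acid transporter gene, had a term of 1.49 (edgeR adjusted p = 0.000376), and 59 of its 84 UMIs in COP1 KO 2 lay in 1 barcode. The dura-rich barcodes held 72.7% of its COP1 KO counts, and its call was lost without them and without HET 1 or COP1 KO 2.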

How the results depend on the processing

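The number of genes called between genotypes, 12 of 3100, moved with the barcodes and the tool. It was 0 of 3100 with DESeq2, 45 of 14299 with no filter on low counts and 5 of 3034 with 4 or more required genes. It was 0 of 1117 without barcodes holding another type's marker and 1 of 695 after thinning. In these last settings 1500015O10Rik, Nov, Kctd12 and Fxyd5 were among the genes not tested, so the lower counts are not only calls lost. Alternatives chosen after seeing the data gave 0 of 2987 without the deepest barcode, 0 of 5335 with barred genes allowed and 0 of 2802 without the 5 dura-rich barcodes. They also gave 28 of 2871 without the 2 neuron-rich barcodes and 22 of 3100 with sex as a covariate, which kept all 12. Unadjusted p was under 0.05 for 37 genes with DESeq2, 21 without marker-holding barcodes, 142 without the deepest barcode, 316 with barred genes allowed and 119 without the dura-rich barcodes. Leaving out 1 library gave 15 to 58 genes, the 58 without COP1 KO 1. The term's count of 21 was 0 against endothelial and mural barcodes and 6 without the dura-rich barcodes, and 2 to 22 with 1 library left out. With 1 library left in a genotype, that sample is assumed to vary like the other genotype's. Without the dura-rich barcodes the term turned to -0.96 for 1500015O10Rik, -1.72 for Kctd12 and -0.06 for Slc38a2, and with 1 library left out it ran from -0.042 (without COP1 KO 2) to 3.16 for Fabp7. Apart from leaving out barcodes or libraries, the causes were not tested. The difference in shares kept its direction in all 10 alternatives run, and was 0.0975 to 0.160 percentage points with 1 library left out. With 12 to 22 barcodes per library, genes of low level could not be tested. No paired analysis was possible because the labels give no replicate numbers, and the numbers used here only follow accession order. Sex divides the libraries the same way as these numbers, so its fit has the form of a block, with 22 genes called.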
